A study of Rattus norvegicus with 102 samples.

Results

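The genes described here are 7 enzymes of cholesterol synthesis, Hmgcs1, Idi1, Fdft1, Sqle, Lss, Cyp51 and Dhcr7, chosen by name out of 26284 genes listed in the Illumina table, and all 7 were found there and passed the filter on low values. They were followed across 3 subfields of the rat hippocampus, CA1, CA3 and the dentate gyrus (DG), dissected from 34 male F344 rats. The rats were young (Y, n = 10, 5 to 6 months old) or aged (17 to 22 months old), and the aged rats had been divided by their water maze performance into an unimpaired class (OG, n = 12) and an impaired class (OB, n = 12). The sources name no transgene or treatment that differed between the classes. All rats were anesthetized with isoflurane before the tissue was taken, and the young rats had been tested in the maze as well. RNA of all 3 subfields of each rat had been sequenced, and each of 3 tables holds 1 library per rat and subfield. Of these, 2, called Illumina and Ion Proton after the sequencer, hold poly-A libraries made from the same RNA, so that a difference seen in both is not independent of the animals and bears on technical error. The third is marked WT, and its library type is not given in the sources used here.

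Cholesterol in the brain is made locally, because plasma lipoproteins hardly cross the blood-brain barrier, and in the adult it is made by glia and neurons, with oligodendrocytes using large amounts for myelin. Synthesis begins with the mevalonate pathway, in which Hmgcs1 (HMG-CoA synthase) makes HMG-CoA and Idi1 (isopentenyl diphosphate isomerase) interconverts the isoprene building blocks. Fdft1 (squalene synthase) commits farnesyl units to sterols, Sqle (squalene epoxidase) oxidises squalene, and Lss (lanosterol synthase) closes the rings. Cyp51 removes a methyl group from lanosterol and Dhcr7 (7-dehydrocholesterol reductase) catalyses a last reduction to cholesterol. Transcription of these genes is known to be driven by SREBP2, the product of Srebf2, when membrane sterol is low, usually together with NF-Y, which binds CCAAT boxes, and Sp1, which binds GC boxes.

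Start-site sequences are shown because the 7 genes share this known regulator, and because Cyp51 varied with less likeness to most of the others in the Illumina table. RefSeq promoter sequences, each 250 bases before to 50 bases after the start, were matched for 5 of the 7 genes on the GRCr8 build, which is not the rn5 build of the tables. Capitals mark the letters of CCAAT, of GGGCGG (a GC box) or of TCACNCCAC (a form of the sterol regulatory element) on either strand, and the lines run 5′ to 3′ along the gene. Hmgcs1 lies at chr2:53382054-53382353 (plus strand), Idi1 at chr17:66547475-66547774 (minus strand) and Cyp51 at chr4:30991443-30991742 (plus strand).
Hmgcs1: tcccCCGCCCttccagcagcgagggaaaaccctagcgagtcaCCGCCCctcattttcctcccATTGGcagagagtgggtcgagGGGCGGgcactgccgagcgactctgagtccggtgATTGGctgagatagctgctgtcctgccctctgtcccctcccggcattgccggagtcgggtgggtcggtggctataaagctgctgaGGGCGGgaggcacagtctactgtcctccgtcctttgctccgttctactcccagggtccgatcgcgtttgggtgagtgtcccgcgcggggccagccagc
Idi1: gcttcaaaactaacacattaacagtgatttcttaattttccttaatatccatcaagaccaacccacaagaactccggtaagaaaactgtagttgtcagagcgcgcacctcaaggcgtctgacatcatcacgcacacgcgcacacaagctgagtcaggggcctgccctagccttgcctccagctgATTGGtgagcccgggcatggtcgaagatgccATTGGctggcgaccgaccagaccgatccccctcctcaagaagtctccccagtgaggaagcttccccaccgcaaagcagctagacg
Cyp51: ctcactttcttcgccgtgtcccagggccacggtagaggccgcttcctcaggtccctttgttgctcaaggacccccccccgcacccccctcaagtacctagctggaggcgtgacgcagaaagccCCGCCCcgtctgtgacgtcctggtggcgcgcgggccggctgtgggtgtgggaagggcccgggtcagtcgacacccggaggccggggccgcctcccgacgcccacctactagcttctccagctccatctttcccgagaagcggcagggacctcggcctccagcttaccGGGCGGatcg

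Hmgcs1 held 2 CCAAT matches, both on the antisense strand at -188 and -133 from the start, and 4 GC boxes. Idi1 held 2 antisense CCAAT matches at -66 and -35 and no GC box, and Lss (chr20:12118181-12118480, minus strand) held 1 antisense CCAAT at -82 and 2 GC boxes. Cyp51 and Dhcr7 (chr1:208444184-208444483, plus strand) held no CCAAT match and 2 GC boxes each. Of 33469 promoters of the same length, 37.5% held CCAAT and 33.1% held GGGCGG, counted on both strands. TCACNCCAC was in 1.12% of them and in none of the 5, which says only that these letters are not in this window.

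The values are normalised counts, that is read counts divided by a size factor per library. Reads per library ranged from 3246922 to 42750899 in the Illumina table (median 10745741) and from 4470473 to 21434160 in the Ion Proton table (median 9738395). Behind them stood 614 to 16116 Illumina reads a library for Hmgcs1, the most deeply counted of the 7 genes, and 34 to 768 for Idi1, the least, so that Idi1 carried the widest counting error. The number of each rat falls below 9000 (18 rats, of which 5 Y, 6 OG and 7 OB) or at 9000 and above (16 rats, of which 5 Y, 6 OG and 5 OB), and libraries of these 2 number series stood apart in CA3. In 12 libraries (1 CA1, 8 CA3 and 3 DG) the subfield markers lay nearer to another subfield than to the labelled one in both poly-A tables, and 9 of the 10 rats concerned had numbers from 9000 up. The rats came from colonies of 2 suppliers and were characterised at 2 sites, in Florida (Taconic; 5 young and 13 aged rats) and Arizona (Charles River; 5 young and 11 aged rats). The series below 9000 likewise held 5 young and 13 aged rats and the series from 9000 up 5 young and 11 aged rats, but no label ties a rat number to a site, so that a site, a supplier and a number series cannot be told apart here. Counts of calls between subfields are given below with and without the 12 libraries. Among the Ion Proton libraries, 7 of aged rats (4 CA1 and 3 CA3) had 15057 to 16845 genes with reads, where the median library had 18535. They held the highest Ion Proton values of Idi1 in CA1 (460.9, next 300.9, median 75.29) and CA3 (742.8, next 273.8, median 87.96), of Hmgcs1 in CA3 (6404, next 4488) and of Sqle in CA3 (1124, next 947.2), and the lowest of Hmgcs1 in CA1 (1160, median 2322). Counts without these 7 libraries, a choice made after seeing the data, are given below as well.

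The log2 difference of CA1 minus CA3 was below 0 for all 7 genes in both poly-A tables over all rats, and 4 of them were called. For Hmgcs1 the Illumina level (lowest, median, highest of 34 rats) was 2897, 3550 and 4389 in CA1. Its CA3 values were 2607, 4747 and 5484 and its DG values 3461, 4020 and 5061. Sqle lay at 500, 629 and 779 in CA1, with CA3 at 497, 804 and 1029 and DG at 645, 772 and 936. CA1 thus had the lowest median of both genes. Idi1 lay at 115, 141 and 199 in CA1, with CA3 at 105, 189 and 285 and DG at 137, 197 and 248. For these 3 genes the median was lowest in CA1, and the CA3 range reached below the CA1 range in each. Mean Fdft1 was 1181 ± 141 (CA1), 1461 ± 293 (CA3) and 1304 ± 131 (DG; SD, n = 34). Lss averaged 440 ± 48.0, 491 ± 78.0 and 491 ± 45.5 and Dhcr7 averaged 367 ± 37.2, 420 ± 58.8 and 424 ± 39.3 in this order. Cyp51 had a different order, with 1894 ± 192 in CA3 and near-equal means of 1681 ± 137 and 1679 ± 128 in CA1 and DG. The spread over rats was widest in CA3 for every one of the 7 genes in the Illumina table.

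When the 9 groups of subfield and class were ranked by mean, neighbouring groups almost never differed by more than their spread. Over the 7 genes and 8 gaps each, 1 Illumina gap exceeded the larger SD of the groups beside it, the step for Sqle from OG rats in DG (755 ± 85.6) to OB rats in CA1 (650 ± 93.6). No gap did so in the Ion Proton table.

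**Figure D1:**
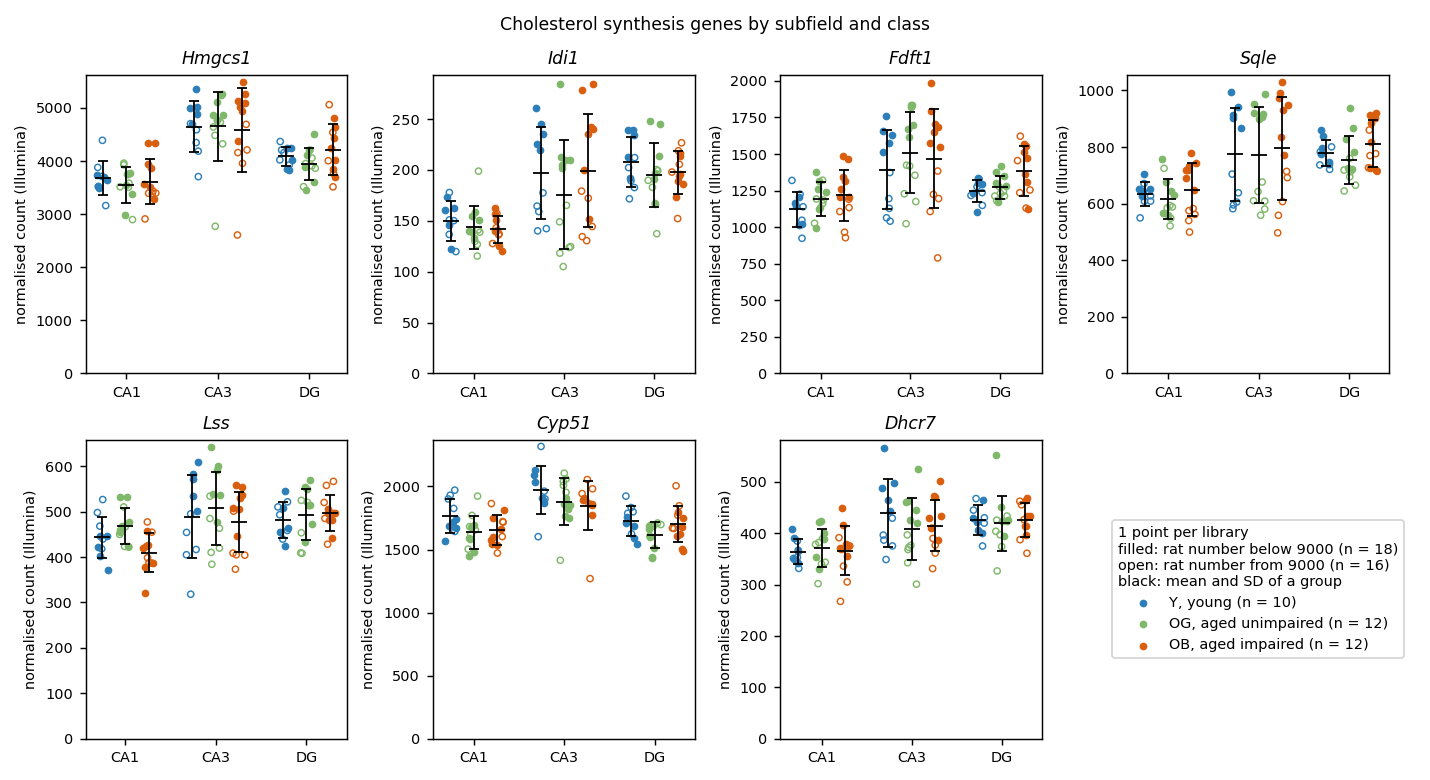
Normalised counts of the 7 genes in the Illumina table (y axes, starting at 0) by subfield (x axes), with 1 point per library coloured by class, filled for rat numbers below 9000 and open from 9000 up, and bars for the mean and SD of each group of 10 or 12 rats. In CA3 the filled points of Sqle lie between 773 and 1029 and the open points between 497 and 714, whereas the classes overlap within every subfield.

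In all, 4 of the 7 genes were called lower in CA1 than in CA3, with an adjusted p under 0.05 by limma in both poly-A tables and the same direction. Over all 13907 genes tested in both tables, 14.4% were called in this comparison and 7.09% were called lower in CA1. Hmgcs1, the first step measured here, had a log2 difference of -0.35 (95% interval -0.43 to -0.26) in the Illumina table (limma, adjusted p = 4.67e-11) and -0.44 in the Ion Proton table, and was lower in CA1 in 31 of 34 rats. All 7 genes were lower in CA1 than in CA3 in 18 rats of the Illumina table and 11 rats of the Ion Proton table. Fdft1 differed by -0.29 (-0.39 to -0.18) and -0.32, Sqle by -0.28 (-0.38 to -0.17) and -0.36, and Cyp51 by -0.17 (-0.23 to -0.11) and -0.29 in the 2 tables. Idi1, Lss and Dhcr7 were past the threshold in the Illumina table, where 35.4% of all genes were (those past it in both tables included), but not in the Ion Proton table, with differences there of -0.17, -0.13 and -0.18. For Idi1 the Ion Proton interval ran from -0.53 to 0.19. The median over the 7 genes was -0.28 (Illumina) and -0.29 (Ion Proton), beside 0.01 and 0.00 over all genes tested. The WT table gave differences between -0.32 (Hmgcs1) and -0.11 (Lss). Taking the 3 subfields of a rat as a block added Dhcr7, for 5 calls (15.8% of all genes), and leaving out the 12 libraries with markers of another subfield gave 6 calls, all but Idi1, with Hmgcs1 at -0.42 (19.2% of all genes). Without the 7 Ion Proton libraries of few genes 5 were called, Dhcr7 added (13.7% of all genes), and the Ion Proton difference of Idi1 was -0.28.

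**Figure D2:**
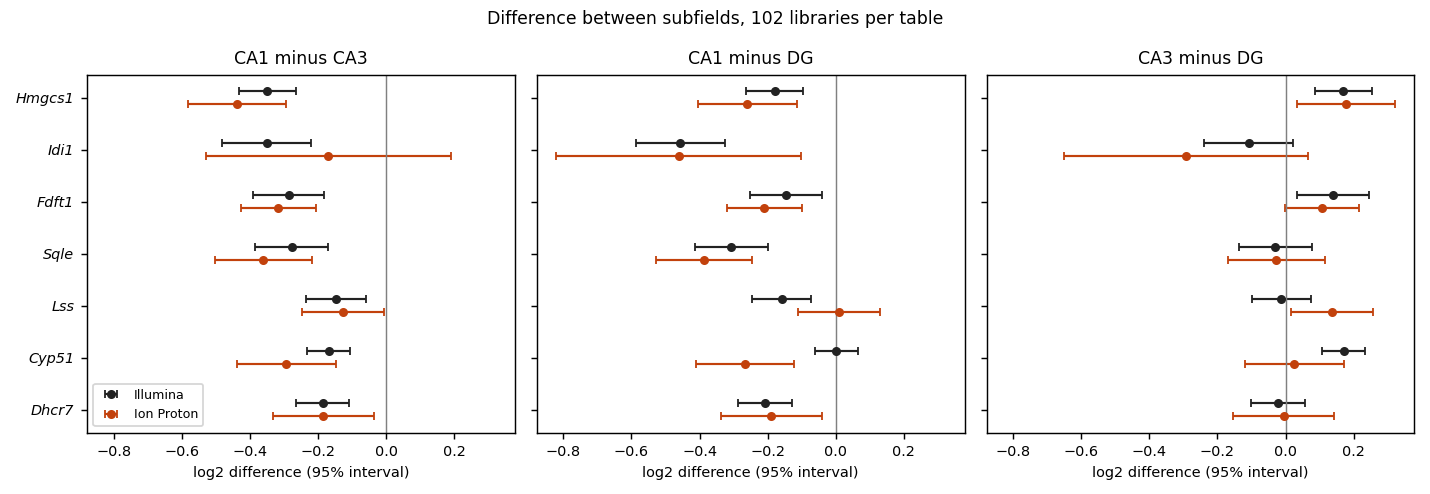
Log2 differences between subfields (x axis) for the 7 genes (y axis), with 95% intervals from limma, in the Illumina and Ion Proton tables. Hmgcs1, Fdft1 and Sqle lie below 0 in CA1 against CA3 and in CA1 against DG in both tables, and Cyp51 in CA1 against DG is at 0.00 in one table and -0.27 in the other.

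The difference between CA1 and CA3 was not the same in the 2 number series. In rats numbered below 9000 the Illumina CA3 level of Sqle was 773, 926 and 1029 (lowest, median, highest of 18), and in rats from 9000 up it was 497, 608 and 714 (of 16). For Fdft1 it was 1511, 1678 and 1984 against 790, 1195 and 1424. For both genes the 2 series did not overlap in CA3. Idi1 was at 152, 231 and 285 against 105, 143 and 179, and Hmgcs1 at 4386, 5022 and 5484 against 2607, 4335 and 4766, with overlap at the edges. In all, 6 of the 7 genes were called lower in CA3 from 9000 up in a fit of subfield and series chosen after seeing the data, among 22.9% of all genes. The log2 differences (from 9000 minus below, Illumina then Ion Proton) were -0.66 and -0.66 for Idi1, -0.59 and -0.64 for Sqle, -0.52 and -0.36 for Fdft1, -0.35 and -0.40 for Lss, -0.31 and -0.37 for Dhcr7 and -0.28 and -0.27 for Hmgcs1. Cyp51 was not called, with -0.01 and 0.12, while in the WT table it was lower like the other 6, at -0.15 (limma, adjusted p = 0.0004244). In CA1 1 gene was called, Sqle at -0.20 and -0.32 (9.11% of all genes), and in DG none of the 7 was (6.79% of all genes). In the WT table Sqle was at 0.01 in CA1 (limma, adjusted p = 0.9285) and at -0.30 in CA3. Dhcr7, not called in CA1, was at -0.19 in CA1 of the WT table (limma, adjusted p = 0.003674).

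Within the series below 9000, Hmgcs1, Idi1, Fdft1, Sqle and Cyp51 were each lower in CA1 than in CA3 in 18 of 18 rats in the Illumina table. In the Ion Proton table Sqle was lower in 18 of these rats, Hmgcs1 and Fdft1 in 16, Cyp51 in 15 and Idi1 in 11. The Illumina differences were -0.64 for Idi1, -0.47 for Fdft1, -0.46 for Sqle, -0.45 for Hmgcs1, -0.34 for Lss, -0.27 for Dhcr7 and -0.21 for Cyp51. Of the 7, 5 were called (not Idi1 and Cyp51), among 21.4% of all genes. From 9000 up only Hmgcs1 was called, at -0.23, among 3.88% of all genes, so that calls were fewer over all genes as well. The other 6 lay between -0.12 (Cyp51) and 0.07 (Lss) in the Illumina table. In the Ion Proton table the mean difference from 9000 up was -0.36 for Cyp51 (lower in CA1 in 15 of 16 rats), -0.34 for Hmgcs1 and -0.23 for Fdft1 (both in 14 of 16), -0.19 for Sqle, -0.16 for Idi1, -0.02 for Dhcr7 and 0.15 for Lss. The test of the difference between the series called Sqle, with -0.39 in the Illumina and -0.32 in the Ion Proton table, and Lss, with -0.41 and -0.53, among 13.9% of all genes. For Idi1 that difference was -0.62 in the Illumina but -0.03 in the Ion Proton table.

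**Figure D3:**
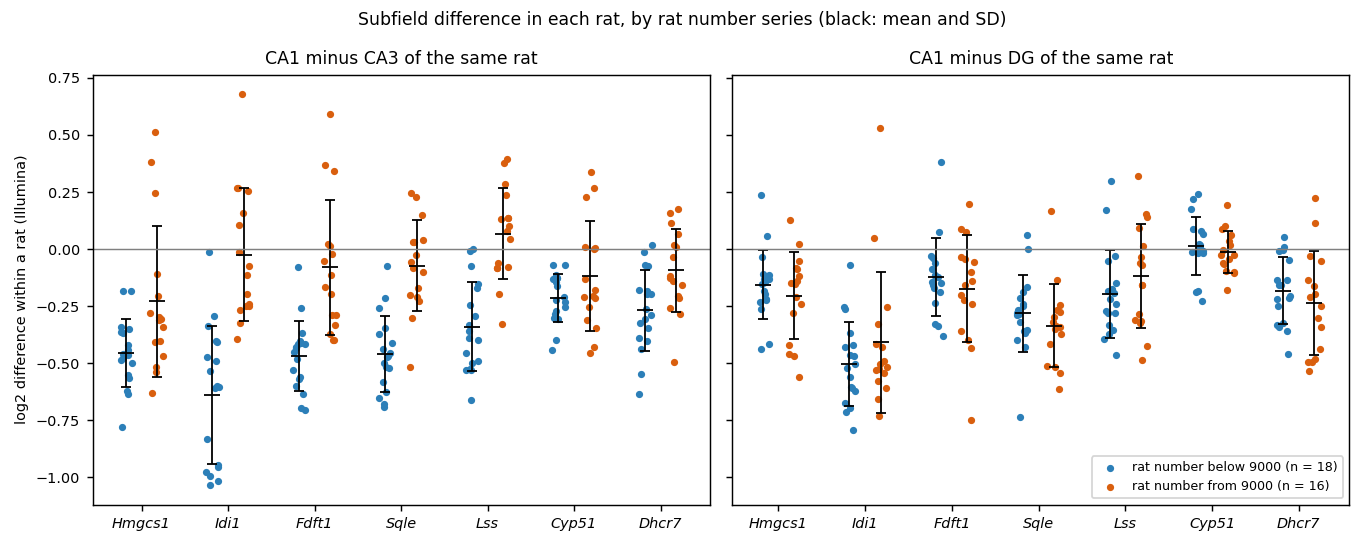
Log2 difference of CA1 minus CA3 (left) and CA1 minus DG (right) within each rat in the Illumina table (y axis) for the 7 genes (x axis), by number series (18 and 16 rats), with mean and SD. On the left every point of Hmgcs1, Fdft1 and Sqle below 9000 lies under 0, and points from 9000 up lie on both sides; on the right the series overlap for all 7 genes.

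Other markers moved with the number series in CA3, and their part in the members' levels was not tested. Of 5 CA3 markers, 4 were called lower from 9000 up (Cpne4, Grik4, Prss23 and Bok), beside 22.9% of all genes called. Grik4 ran from 1948 to 2867 below 9000 and from 440 to 1431 from 9000 up. The summed level of the 5 ran from 17600 to 23070 and from 3399 to 18970. Of 5 DG markers 4 were called higher, as were 3 of 3 CA1 markers tested in both tables. Of 10 oligodendrocyte markers 9 were called lower (median log2 difference -0.73), and of 8 astrocyte markers 5 were called higher. Of 6 neuronal markers Nefl and Syt1 were called lower, with a median of -0.45 over the 6 in the Illumina table. In DG 10 of 10 oligodendrocyte markers were called higher from 9000 up (median 0.97), beside 6.79% of all genes called. In CA1 (9.11% of all genes called) 8 of 10 oligodendrocyte (median 0.60), 4 of 8 astrocyte, 5 of 5 choroid plexus (2.8) and 3 of 5 CA3 markers were called higher. There 1 of 6 neuronal and 1 of 3 CA1 markers were called lower. The CA1 minus CA3 difference between the series was called for 10 of 10 oligodendrocyte markers (median -1.3), among 13.9% of all genes. In bulk tissue fewer cells of a type and less RNA per cell cannot be told apart.

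CA1 was also lower than DG in most of these genes. In all, 5 of the 7 genes were called, among 26.9% of all genes and 13.5% called lower in CA1. Idi1 differed by -0.46 (95% interval -0.59 to -0.33) in the Illumina and -0.46 in the Ion Proton table, Sqle by -0.31 (-0.41 to -0.20) and -0.39, and Dhcr7 by -0.21 (-0.29 to -0.13) and -0.19. Hmgcs1 differed by -0.18 and -0.26 and Fdft1 by -0.15 and -0.21. Idi1 was lower in CA1 in 32 of 34 rats, Sqle in 31 and Hmgcs1 in 30 (Illumina). In the Ion Proton table the counts were 23 for Idi1, 30 for Sqle and 26 for Hmgcs1. Lss differed by -0.16 in the Illumina and 0.01 in the Ion Proton table, and Cyp51 by 0.00 and -0.27, so neither was called. In the Illumina table, whatever the Ion Proton result, 55.6% of all genes were past the threshold. Between the series the difference from DG was called for none of the 7 genes (0.108% of all genes), with Illumina values from -0.09 to 0.05. Ion Proton values ranged more widely, from -0.15 for Dhcr7 to 0.83 for Idi1 (95% interval 0.145 to 1.508). The mean Ion Proton difference of Idi1 within rats was -0.07 below 9000 and -0.90 from 9000 up. Within the series, Sqle was called below 9000 (15.4% of all genes) and Hmgcs1, Idi1, Fdft1 and Sqle from 9000 up (20.5% of all genes). The block by rat gave 5 calls again (29.2% of all genes). Leaving out the 12 libraries with markers of another subfield gave 4 calls, without Dhcr7 (-0.21 in the Illumina and -0.19 in the Ion Proton table), among 28.8% of all genes. Without the 7 Ion Proton libraries of few genes 5 were called (31.5% of all genes), with Idi1 at -0.67 in the Ion Proton table.

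Over all rats none of the 7 genes was called between CA3 and DG, against 28.5% of all genes, but the genes called within each of the 2 number series had opposite directions. Hmgcs1 was higher in CA3 by 0.17 (0.09 to 0.25) and 0.18, the latter with an adjusted p of 0.0531 by limma, and with the block by rat it was called (30.8% of all genes). Leaving out the 12 libraries with markers of another subfield gave 2 calls (30.2% of all genes), and leaving out the 7 Ion Proton libraries of few genes gave 1, Fdft1 at 0.14 (35.8% of all genes). Cyp51 was higher in CA3 by 0.17 in the Illumina table, where 55.6% of all genes were past the threshold, and by 0.03 in the Ion Proton table. Below 9000 the 4 called genes were higher in CA3 (22.9% of all genes called), namely Fdft1 (0.35, in 18 of 18 rats), Hmgcs1 (0.30), Sqle (0.18, in 16 of 18 rats) and Lss (0.14). From 9000 up the 2 called genes were lower in CA3 (21.6% of all genes called), namely Idi1 (-0.38) and Sqle (-0.26), both in 16 of 16 rats. These counts are of the Illumina table. In the Ion Proton table they were 16 of 18 for Fdft1 and 14 of 18 for Sqle below 9000, and 13 of 16 for Idi1 and Sqle from 9000 up. The Illumina differences of the 7 genes ranged from 0.09 to 0.35 below 9000 and from -0.38 to 0.10 from 9000 up. The test of the difference between the series, added after seeing the data, called Hmgcs1 (0.27 in the Illumina and 0.44 in the Ion Proton table), Fdft1 (0.44 and 0.33), Sqle (0.44 and 0.53) and Lss (0.33 and 0.38), among 17.2% of all genes.

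Markers of several cell types moved with the subfields, and their part in the enzymes' values was not tested beyond the covariate fits below. Of 6 neuronal markers, Nefl, Snap25 and Syt1 were called lower and Rbfox3 higher in CA1 than in CA3 (median -0.23), beside 14.4% of all genes called, and 3 were called lower in CA1 than in DG (median -0.30), beside 26.9% of all genes. Their summed Illumina level was 36710 to 54850 in CA1, and it spanned 37570 to 79580 in CA3 and 49360 to 70290 in DG. With the mean neuronal marker level as a covariate, an alternative chosen after seeing the data, Hmgcs1 (-0.24), Cyp51 (-0.16), Fdft1 (-0.12) and Sqle (-0.08) were called between CA1 and CA3 (Illumina values), among 11.6% of all genes, and none of the 7 was called between CA1 and DG, where Idi1 was at -0.20 and Sqle at -0.05, among 21.6% of all genes. The median over the 7 genes between CA1 and DG was -0.05 in the Illumina table, beside -0.18 without the covariate, but -0.22 in the Ion Proton table, beside -0.26. Of 10 oligodendrocyte markers none was called between CA1 and CA3, where 10 of 10 had a value below 0 in both tables (median -0.13 in the Illumina and -0.19 in the Ion Proton table), and 10 of 10 were called higher in CA1 than in DG (median 0.73), where 3 of 6 microglial (0.30), 3 of 4 endothelial (0.52) and 2 of 5 choroid plexus markers (1.18) were called higher as well. With the mean oligodendrocyte marker level as a covariate, 4 of the 7 enzymes were called between CA1 and CA3 (13.6% of all genes), 4 between CA1 and DG (21.7%), where Dhcr7 was no longer called, and none between CA3 and DG (17.5%). No gene of these marker lists was at 0 throughout.

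Of 14 other enzymes of the pathway, 7 were called lower in CA1 than in CA3 and none higher, beside 14.4% of all genes called. The 7 included Acat2 (acetoacetyl-CoA thiolase) at -0.47 and Mvd, a mevalonate pathway decarboxylase, at -0.39. Against DG 7 were called lower (26.9% of all genes were called in either direction), with Acat2 at -0.43 and Mvd and Nsdhl both at -0.40, and 1 higher, Mvk (mevalonate kinase) at 0.24. The Illumina median over the 14 was -0.16 against CA3 and -0.09 against DG. Mvk was also the 1 enzyme called between CA3 and DG, at 0.30. In CA3, Acat2, Mvd and Nsdhl were among the enzymes called lower from 9000 up.

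Of 12 genes of sterol sensing and uptake tested in both tables, 2 were called against CA3, both higher in CA1, beside the 14.4% of all genes. Mylip, a ubiquitin ligase induced by LXR, was called higher in CA1 than in CA3 (0.44), as was the SREBP protease gene Mbtps1 (0.15). Srebf2 was at -0.18 and Insig1, which retains SREBP in the endoplasmic reticulum, at -0.23, and neither was called. Against DG (26.9% of all genes called) 4 were higher in CA1 and 2 lower, led by Mylip at 0.93, the LXR-alpha gene Nr1h3 at 0.34 and Srebf1 at 0.33, while Srebf2 (-0.23) and Insig1 (-0.03) were not called. Between CA3 and DG (28.5% of all genes called) 3 were higher and 3 lower, led by Mylip at 0.48, Srebf1 at 0.31 and the protease gene Mbtps2 at -0.29. Srebf2 (-0.05) and Insig1 (0.20) were not called there. By number series, 5 of the 12 were called lower in CA3 from 9000 up, beside 22.9% of all genes called in either direction, among them Insig1 (-0.40), Stard4, a sterol carrier (-0.37), Srebf2 (-0.20) and Srebf1 (-0.19). Of 18 genes of transport, storage and removal, 4 were called lower in CA1 than in CA3, namely Cyp27a1 (a sterol hydroxylase) at -1.09, Lipa (lysosomal acid lipase) at -0.36, Lcat at -0.35 and Abcg4 at -0.15. Against DG 5 were higher and 3 lower, with Cyp27a1 at -1.21, Ch25h at 0.72 and Npc1 at 0.40. Between CA3 and DG 6 were higher and 1 lower, with Npc1 and Lcat both at 0.52 and Npc2 at 0.35.

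None of the 7 genes was called for age in any subfield. A call here needed p under 0.01 with Illumina and, as a retest, a one-sided Ion Proton p under 0.05 for that direction, which 0.832% of all genes met in CA1, 0.393% in CA3 and 1.07% in DG. Without the 7 Ion Proton libraries of few genes, all of aged rats, the 7 genes again had 0 calls. The shares of all genes were then 1.39% in CA1 and 0.575% in CA3. Illumina log2 differences (OG and OB together minus Y) were within -0.10 and 0.10 in CA1, within -0.09 and 0.09 in CA3 and within -0.09 and 0.08 in DG, with no adjusted p under 0.05. The medians of -0.02, -0.02 and -0.01 lay beside 0.00, -0.01 and 0.00 over all genes. In the Illumina table the 95% limits reached down to -0.39 for Idi1 and up to 0.32 for Fdft1, both in CA3. Cyp51 in CA1 came nearest, with 1569, 1730 and 1971 (lowest, median, highest) in Y, 1447, 1638 and 1924 in OG and 1472, 1633 and 1864 in OB. The classes overlapped, and the difference was -0.10 (95% interval -0.19 to -0.02, limma p = 0.0188, adjusted p = 0.634) in the Illumina and -0.12 in the Ion Proton table. Without the 7 most deeply sequenced rats Cyp51 met the call at -0.15.

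The aged classes taken apart gave the same count of 0 called genes. For OG against Y, 0.607% of all genes were called in CA1, 0.386% in CA3 and 0.621% in DG. For OB against Y the shares were 1.21%, 0.274% and 0.948%. Fdft1 in DG ran from 1101 through 1256 to 1334 (lowest, median, highest) in Y, from 1170 through 1261 to 1415 in OG and from 1122 through 1410 to 1622 in OB. It differed by 0.14 (0.01 to 0.27) between OB and Y in the Illumina and by 0.18 in the Ion Proton table, with limma adjusted p of 0.868 and 0.694.

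Impaired and unimpaired aged rats did not differ in any of the 7 genes by these rules, beside 0.62% of all genes called in CA1, 0.0211% in CA3 and 0.121% in DG. Without the 7 Ion Proton libraries of few genes the count was 0 as well, beside 0.999% of all genes in CA1. Lss in CA1 was the 1 gene with an Illumina p under 0.01, which 1.46% of all genes had. It was at 422, 462 and 533 (lowest, median, highest) in OG and at 320, 410 and 477 in OB, with Y between them at 371, 443 and 527. The ranges overlapped, and the difference was -0.19 (95% interval -0.31 to -0.08, limma p = 0.00221, adjusted p = 0.561). The Ion Proton values were 323, 480 and 531 in OG and 381, 448 and 500 in OB, a difference of -0.06 (-0.23 to 0.11). In DG all 7 genes were higher in OB than in OG in the Illumina table (median 0.07, beside 0.00 over all genes) and 6 of 7 in the Ion Proton table (median 0.11), and none was called. The WT table had both directions, with Lss (0.17), Dhcr7 (0.12) and Fdft1 (0.06) higher in OB. Idi1 (-0.19), Sqle (-0.03), Hmgcs1 (-0.02) and Cyp51 (-0.01) were lower there. Of the neuronal markers in DG 5 of 6 were higher in OB in the Illumina table and of the oligodendrocyte markers 10 of 10, none of them called. The subfield markers had larger medians, again with none called: 5 of 5 DG markers (median -0.34) and 3 of 3 CA1 markers (-0.33) had values below 0 (OB minus OG) and 5 of 5 CA3 markers (0.29) values above 0 in the Illumina table, with the same signs in the Ion Proton table. Their part in the enzymes' values was not tested.

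**Figure D4:**
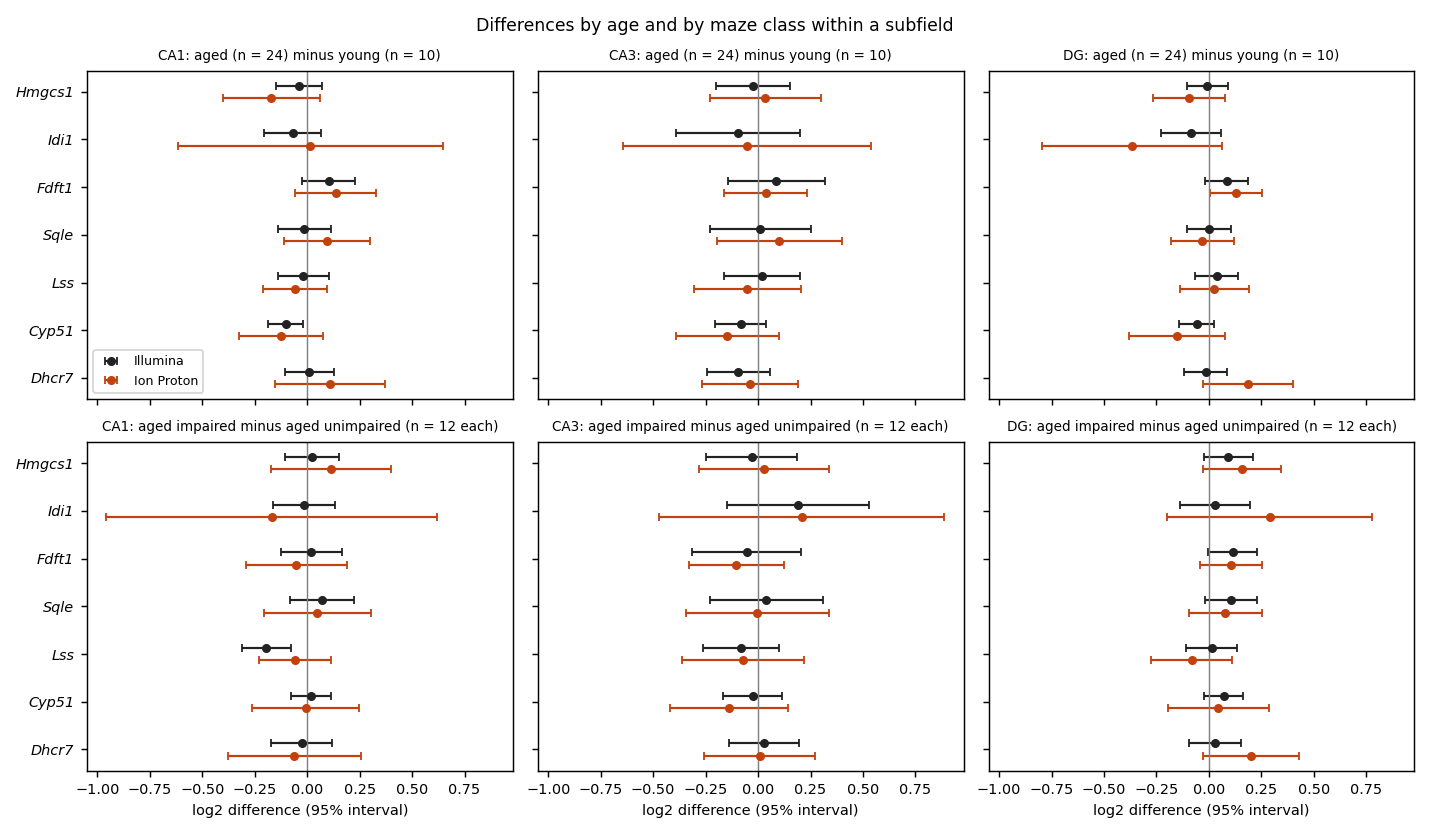
Log2 differences with 95% intervals (x axis) for age and for impairment in each subfield, for the 7 genes (y axis) in the Illumina and Ion Proton tables. Of the 21 intervals of each comparison and table, 0 or 1 excludes 0, namely Cyp51 in CA1 for age and Lss in CA1 for impairment (Illumina) and Fdft1 in DG for age (Ion Proton).

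Interactions of age or impairment with subfield had no adjusted p under 0.05 in any of the 7 genes, with or without the block by rat. The smallest unadjusted Illumina p was 0.0387 for impairment in CA1 against DG. Over all genes the interactions had 0 adjusted p under 0.05 in either poly-A table, while 50 to 647 genes had an unadjusted p under 0.05 in the Illumina table.

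In the pathway lists around the enzymes few genes met the call for age. Of the 14 other enzymes, 1 was called higher in OB than in Y in DG, where 14 of 14 had a value above 0 in the Illumina and 12 of 14 in the Ion Proton table (median 0.05 and 0.08). Npc2, a carrier of cholesterol out of lysosomes, was higher in aged rats in DG (0.33 in the Illumina and 0.48 in the Ion Proton table), in OG against Y in CA3 (0.34 and 0.31) and DG (0.30 and 0.44), and in OB against Y in CA1 (0.44 and 0.34) and DG (0.36 and 0.52). In CA1 over all aged rats it was at 0.46 in the Illumina table (limma, adjusted p = 0.0025) and at 0.29 in the Ion Proton table, which missed the retest. Srebf2 and Insig1 were not called in these comparisons, and Illumina values for age lay between 0.04 and 0.15 for Srebf2 and between 0.06 and 0.09 for Insig1. For impairment they lay between -0.06 and 0.04 and between -0.09 and 0.08 in the same order. Among the marker lists, 3 of 6 microglial markers were called higher with age in CA1, 1 of 6 in CA3 and 3 of 6 in DG, beside the 0.832%, 0.393% and 1.07% of all genes.

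Pairs of the 7 genes differed in how closely they varied together. After the mean of each of the 9 groups was taken out, Pearson r over the Illumina libraries (3 from each of 34 rats) ranged from -0.04 to 0.85 over the 21 pairs (median 0.50), as a description of libraries that share rats, depth and dissection. Hmgcs1 with Fdft1 (0.85), Fdft1 with Sqle (0.845), Idi1 with Sqle (0.75) and Sqle with Dhcr7 (0.74) were the closest pairs. Cyp51 had -0.01 to Sqle, -0.03 to Idi1, -0.04 to Lss and 0.04 to Dhcr7, but 0.60 to Hmgcs1. Other tables gave other values for some of these pairs. In the Ion Proton table Hmgcs1 with Fdft1 was at 0.265, Fdft1 with Sqle at 0.655, Idi1 with Sqle at 0.68 and Sqle with Dhcr7 at 0.20. Cyp51 had 0.40 to Idi1 and 0.23 to Sqle there, but -0.15 to Lss and -0.38 to Dhcr7. In the WT table Cyp51 had 0.61 to Sqle, 0.53 to Idi1, 0.44 to Dhcr7 and 0.15 to Lss. Without the 12 libraries with markers of another subfield, Hmgcs1 with Cyp51 was at 0.39 and Fdft1 with Cyp51 at 0.10, from 0.30; with the number series taken out the latter was at 0.53. With the group means and the number series taken out the median fell to 0.23 and the pairs over 0.5 went from 11 to 6, while Hmgcs1 with Fdft1 was at 0.81 and Hmgcs1 with Cyp51 at 0.76. In the Ion Proton table the median was 0.27 and the range -0.38 to 0.68. With the number series taken out there as well, Hmgcs1 with Fdft1 was at 0.09, Sqle with Dhcr7 at -0.15 and Hmgcs1 with Cyp51 at 0.66.

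**Figure D5:**
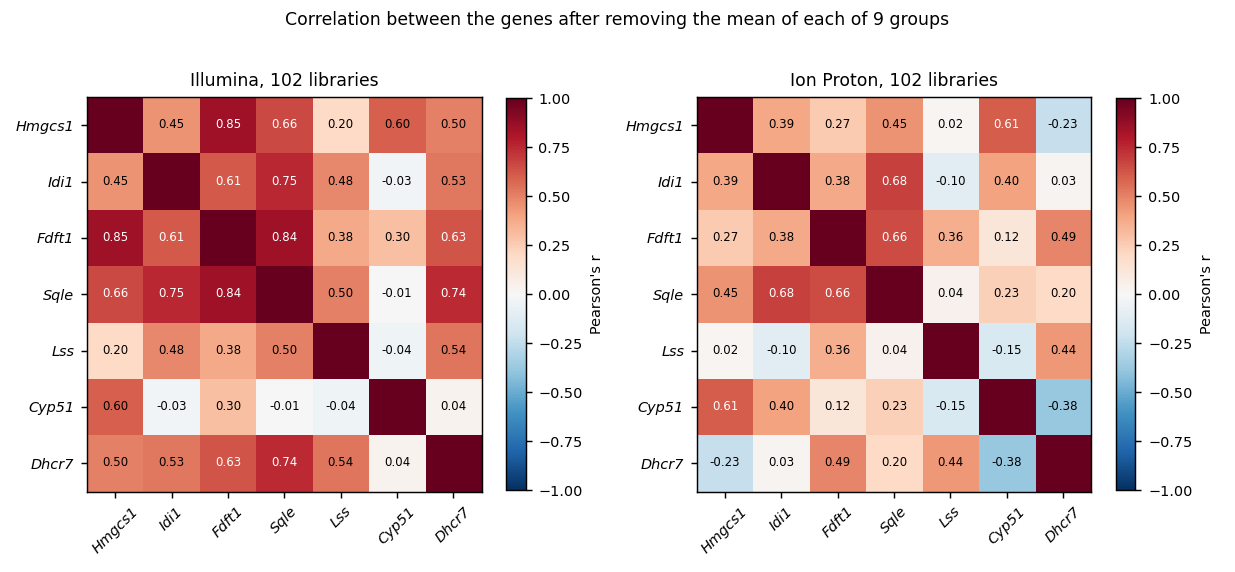
Pearson r between each pair of the 7 genes over the libraries of 34 rats after group means were taken out, for the Illumina and Ion Proton tables. In the Illumina table r runs from -0.04 to 0.85, and the low values are those of Cyp51 with Idi1, Sqle, Lss and Dhcr7.

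The joint level of the 7 genes, the mean of their standardised log2 values, was followed most closely by genes that include other enzymes of the pathway. The 10 genes with the highest r in the Illumina table included Acat2 (0.87), Rnf14 (0.85), Sh3gl2 (0.84), Mvd (0.84), Ywhag (0.83), Ywhah (0.82), Thy1 (0.82) and Atp6v0d1 (0.82). In the Ion Proton table Rnf14 had 0.72 and Atp6v0d1 0.61, but Acat2 had 0.29, Mvd 0.12 and Ywhag 0.01, so these likenesses were weak there. With the series taken out the Illumina r of the 10 was 0.56 to 0.72. Insig1, not among the 10, had 0.77 in the Illumina and 0.71 in the Ion Proton table; it was chosen after its values were seen. Of the neuronal markers, Nefl (0.78), Snap25 (0.76), Stmn2 (0.76), Syt1 (0.74) and Tubb3 (0.43) exceeded every oligodendrocyte marker (0.10 to 0.37). Rbfox3 (0.285) did not in this Illumina comparison. In the Ion Proton table Nefl (0.55), Snap25 (0.575), Stmn2 (0.57) and Syt1 (0.485) again exceeded every oligodendrocyte marker (0.09 to 0.41). Rbfox3 (-0.16) and Tubb3 (-0.26) lay below them all there. Of the CA3 markers, only Grik4 (Illumina 0.65, Ion Proton 0.44) and Cpne4 (0.57 and 0.56) exceeded them in both tables.

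The 2 poly-A tables, which measured the same RNA, were compared gene by gene over the 34 rats of a subfield. Of 21 such relations 15 had a Benjamini-Hochberg adjusted permutation p under 0.05 for Pearson r and 16 for Spearman rho, and r ranged from 0.12 to 0.87 (median 0.42). Fdft1 had r = 0.67, 0.82 and 0.87 in CA1, CA3 and DG (rho = 0.73, 0.85 and 0.81), each with a two-sided permutation p of 1e-05, the smallest that 100000 permutations can give. Idi1 had r = 0.12 in CA1 (permutation p = 0.51; rho = 0.21, p = 0.228) and 0.27 in DG (permutation p = 0.118; rho = 0.09, p = 0.631). Without the 2 rats farthest from the Illumina median, r was 0.01 to 0.84. In CA3 all 7 relations passed (r from 0.42 to 0.82), and there r within the series below 9000 was 0.10 to 0.45 and from 9000 up 0.22 to 0.86. For Sqle in CA3 r was 0.82 over all rats, 0.10 within the series below 9000 and 0.47 within the other.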

How the data were processed

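Poly-A RNA of 3 hippocampal subfields from 34 rats was sequenced on a HiSeq (Illumina table) and an Ion Proton. The authors deposited normalised signal values, that is read counts divided by a DESeq2 size factor per library, separately for each table. Per the study's methods, Illumina reads were demultiplexed with bcl2fastq 2.17, trimmed with cutadapt 1.8.3, aligned with STAR 2.5 to rn5 and counted with featureCounts 1.4.4, and Ion Proton reads were aligned with TopHat2 and Bowtie2. Labels and methods name different kits, so strand-specific counting is not known. How the WT table was made is not given in the sources used here. Whole reads were recovered for 100% of values (within 0.1 of a whole number).

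Each table was tested alone with limma 3.58.1 (trend, R 4.3.3) on log2(value + 1) after a filter on a mean of at least 10, with Benjamini-Hochberg adjustment over all genes. A log2 difference on this scale understates low genes. Subfields were fitted together and age and impairment within a subfield. The code was tested on simulated data. Alternatives were another pseudocount, no filter, quantile normalisation, edgeR 4.0.16 and DESeq2 1.42.0 on the recovered reads, the WT table in place of Illumina, an oligodendrocyte marker covariate, the rat as a block, either number series, libraries or rats left out and, chosen after seeing the data, a neuronal marker covariate, the fit by number series and leaving out 7 Ion Proton libraries with fewer than 17000 genes with reads. Samples with the same rat number come from the same animal, which pairs the subfields. Deviations of the same rat had a median r of 0.09 between CA1 and CA3, 0.19 between CA1 and DG and -0.03 between CA3 and DG.

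The 7 genes and all lists were chosen with earlier results of these data known. All 7 were named throughout, with Srebf2 and Insig1, of each list the 3 genes called with the largest Illumina change (all where 5 or fewer were called), and the 10 genes most like the 7. Some genes that this rule names are not reported here.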

Additional observations from a re-analysis of the deposited data

Results flagged for a closer look

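Of 63 groups of 10 young rats (7 genes in 3 tables and 3 subfields; the aged classes of 12 were too large for this rule), 5 held a library far from the others, where chance gives about 1 in 20. In CA3 a single Ion Proton library had Idi1 at 273.8 (median of the group 90.13, nearest rat 163.0) and Cyp51 at 2526 (median 1640, nearest 1890). In the WT table Idi1 was low in 1 DG library at 110.0 (median 160.1, nearest rat 148.3), Lss was high in another DG library at 433.9 (median 314.7, nearest 327.1) and Cyp51 was low in a CA3 library at 940.0 (median 1235, nearest 1107). The difference between CA1 and CA3 also differed between the rat number series, by -0.3871 (log2, below 9000 minus from 9000) for Sqle and by -0.4075 for Lss, each called in both poly-A tables. The difference between CA3 and DG differed between the series, taken the same way round, by 0.2738 for Hmgcs1, 0.4398 for Fdft1, 0.4402 for Sqle and 0.3308 for Lss, each called in both tables.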

How the results depend on the processing

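Percentages here are the shares of all genes tested with Illumina that were called under the same alternative. Of the 5 genes called between CA1 and DG, the count was 3 with no filter, with DESeq2 or without the deepest rats (15.7% to 29.8%), 1 with numbers below 9000 only (15.4%) and 0 with the neuronal marker covariate (21.6%), where Fdft1 turned to 0.073. Of the 4 called between CA1 and CA3, 1 was called with numbers from 9000 up only (3.88%). Between CA3 and DG, where 0 were called, the count was 1 with quantile normalisation, edgeR, DESeq2, the replicate block of the rat or without the 7 Ion Proton libraries of few genes (29.5% to 35.8%), 2 with numbers from 9000 up, without the 12 libraries with markers of another subfield or with the neuronal covariate (21.6% to 30.2%), and 4 with numbers below 9000 (22.9%), where Sqle turned to 0.178, Lss to 0.144, Idi1 to 0.138 and Dhcr7 to 0.0864; with numbers from 9000 up Fdft1 turned to -0.093. For age in CA1, OG against Y and OB against Y, 1 gene each, Cyp51, was called without the deepest rats (-0.15, -0.15 and -0.155, beside 0.964%, 0.718% and 0.952%), and Fdft1 in CA1 for OB against Y with numbers below 9000 (0.26, beside 1.56%). The causes were not tested. Of the values called between subfields, 1 of 126 changed sign under the alternatives, and of those not called 20 of 168. The block by rat changed no other call than those given here and beside the results, where it added Dhcr7 between CA1 and CA3. Counting depth limits Idi1 most, with as few as 24 Ion Proton reads in a library.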
